A study of Homo sapiens with 9 samples.

Results

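Cholesterol handling was described through 29 genes measured in 3 human breast epithelial cell lines. The members were chosen by name and were found as 29 of the 62666 gene rows: 18 genes of cholesterol synthesis, 5 genes of sterol sensing and 6 genes of uptake, transport and efflux. All 29 passed the filter on low counts, which kept 17910 genes in all. The lines form a progression series of a common origin. MCF10A is an immortalised line that does not form tumours, MCF10AT1 was derived from it with an activated HRAS and is regarded as premalignant, and MCF10Ca1a is a tumour-forming descendant of the same lineage. Polyadenylated RNA was sequenced from 3 libraries of each line, and the comparison between lines was stated by the submitters to address breast cancer progression.

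All lines were grown in DMEM/F12 with insulin at 10 µg/mL, epidermal growth factor at 20 ng/mL, hydrocortisone at 500 ng/mL, cholera toxin at 100 ng/mL, glutamine at 2 mM and NaHCO3 at 14 mM. Horse serum was 5% for MCF10A and MCF10Ca1a and 2.5% for MCF10AT1. Serum carries lipoprotein cholesterol, so in each comparison with MCF10AT1 the line and the serum cannot be told apart; MCF10Ca1a and MCF10A were grown in the same serum. Each stage is represented by 1 line. The labels do not say whether the 3 libraries of a line came from separate cultures. The p-values therefore measure the spread between these libraries, which may be technical, pooled over the 3 lines. That spread was unequal. Between pairs of libraries, chi-square per degree of freedom, which grows with depth, was 11.3 to 72.4 in MCF10A. It was 3.52 to 16.5 in MCF10AT1 and 2.39 to 4.13 in MCF10Ca1a.

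Cells make cholesterol from acetyl-CoA through mevalonate, squalene and lanosterol. When membrane sterol is low, SCAP escorts the SREBP transcription factors out of the endoplasmic reticulum, and SREBPs then switch on genes of synthesis and uptake, whereas INSIG proteins hold SCAP back when sterol is high. When sterols accumulate, oxysterols activate the LXR receptors, whose known targets include the exporters ABCA1 and ABCG1, the ubiquitin ligase MYLIP and SREBF1. In epithelial cells the pathway feeds membrane growth and, through its isoprenoid side branch, protein prenylation.

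The libraries of MCF10A and MCF10AT1 held between 62898823 and 69508842 estimated counts, and those of MCF10Ca1a between 32930503 and 35243012. The 8 epithelial markers had a summed level of 2370 to 3240 TPM in MCF10A, 3360 to 3810 in MCF10AT1 and 3960 to 4090 in MCF10Ca1a. They did not move together. KRT5 went from 1423 to 419.6 TPM and KRT14 from 205 to 4.78 TPM between MCF10A and MCF10Ca1a, and KRT19 had 2, 6 and 3 counts in MCF10A and 243 to 270 in MCF10Ca1a. Of the markers of other cell types, COL1A2, COL3A1, VWF, CDH5, PTPRC, CD3E and ADIPOQ stayed at 3 counts or fewer in each library. Others did not. CD14 of the leukocyte list had 600 to 611 counts in MCF10A, 269 to 304 in MCF10AT1 and 4 to 12 in MCF10Ca1a, and COL1A1 of the fibroblast list had 536 to 642, 203 to 228 and 169 to 195. In the same order the summed fibroblast list (6 genes) held 6.43 to 7.21, 27.6 to 31.5 and 1.92 to 2.29 TPM, with DCN highest in MCF10AT1. The 3 endothelial markers held 0.554 to 0.746, 0.789 to 1.22 and 15.6 to 20.8 TPM, with PECAM1 high in MCF10Ca1a, and the 3 leukocyte markers 7.58 to 9.41, 3.39 to 3.94 and 0.178 to 0.281. The 3 adipocyte markers held 0.0273 to 0.116, 0.11 to 0.206 and 6.7 to 7.46 TPM, with PLIN1 the highest of them in MCF10Ca1a. The summed level of 6 proliferation markers was 1530 to 1570 TPM in MCF10A, 1230 to 1290 in MCF10AT1 and 361 to 363 in MCF10Ca1a, so it moved with the line in every comparison below. In MCF10AT1 against MCF10A 5 of the 6 fell and PCNA rose, from 377 to 426 TPM. The part of these markers in the results was not tested. In bulk RNA, fewer cells that express a gene and less of its RNA per cell cannot be told apart.

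Summed levels of the synthesis and sensing genes were higher in every library of the derived lines than in MCF10A, and the 2 exporters stood out in MCF10Ca1a. Summed over the 18 synthesis genes, the level per transcript length was 2820 ± 187 TPM in MCF10A, 3904 ± 172 in MCF10AT1 and 4043 ± 44.5 in MCF10Ca1a (mean ± SD, n = 3). The 5 sensing genes together stood at 179.1 ± 27.3 TPM, 390.0 ± 3.06 and 603.5 ± 6.18 in the same order. ABCA1 and ABCG1 together stood at 1.31 ± 0.266 TPM in MCF10A and 0.997 ± 0.0544 in MCF10AT1 and reached 14.8 ± 0.478 in MCF10Ca1a. Levels between genes are compared in TPM, which is scaled by transcript length, and differences within a gene in CPM (counts scaled to library size, with TMM factors) and as log2 fold changes from edgeR.

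**Figure D1:**
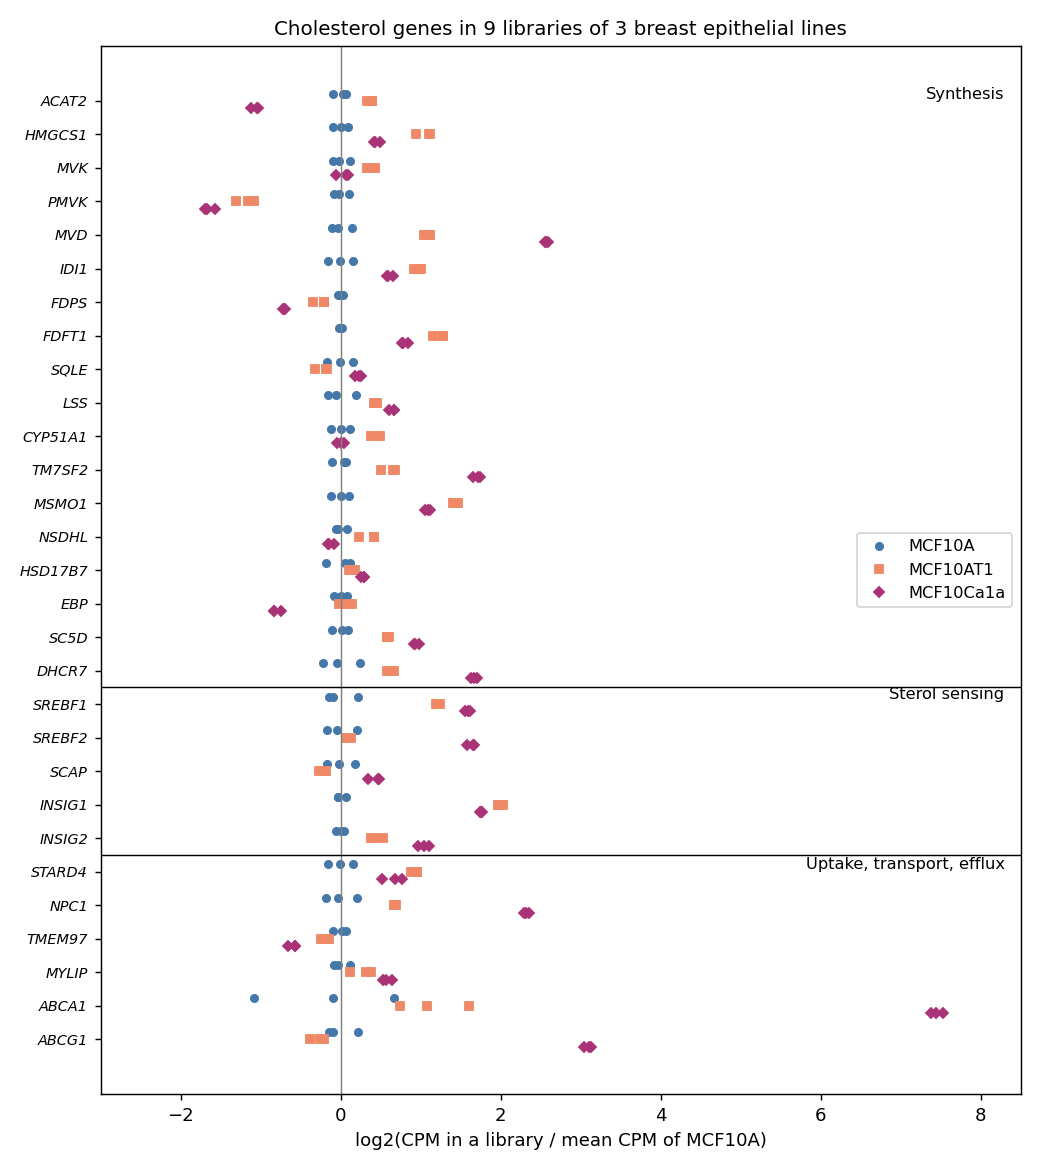
Each symbol is 1 library, and the horizontal axis is the log2 ratio of its CPM to the mean CPM of MCF10A, with the 29 genes as rows in pathway order. Most synthesis genes lie within 2 log2 units of MCF10A, while ABCA1 lies more than 7 units and ABCG1 about 3 units to the right in MCF10Ca1a.

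The synthesis genes were mostly higher in MCF10AT1 than in MCF10A. By the quasi-likelihood test of edgeR, adjusted after Benjamini and Hochberg over the 17910 genes, 13 of 18 rose, 3 fell and 2 did not pass an adjusted p of 0.05, against 29.8% of all genes tested that rose and 31.8% that fell (61.6% called either way). The median log2 fold change of the 18 was 0.44, beside -0.0038 over all genes. The 4 that rose at least 2-fold, HMGCS1, MVD, FDFT1 and MSMO1, compare with 9.36% of all genes, and PMVK, the 1 that fell as far, with 8.64%. FDPS and SQLE fell by less.

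Against MCF10A, MCF10Ca1a had 11 of the 18 synthesis genes higher and 4 lower, with 3 not called. In that comparison 39.0% of all genes rose and 41.9% fell, 80.9% in all, so that a call alone says little and the balance of directions more. The median of the 18 was 0.36, beside -0.047 over all genes. At least 2-fold, 4 were higher and 2 lower, where 21.2% and 21.7% of all genes were. This comparison shares the MCF10A libraries with the one before, and only the direct contrast of the derived lines bears on how they differ from each other. In that contrast 6 of 18 were higher in MCF10Ca1a, 11 were lower and 1 was not called, against 38.0% higher and 40.3% lower among all genes (78.4% called). The median of the 18 was -0.36, beside -0.044 over all genes. At least 2-fold, 3 were higher and 1 lower, against 18.2% and 19.5% of all genes.

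The libraries of most members did not overlap between lines. In MCF10AT1 against MCF10A, 20 of the 29 members were higher and 5 lower in every library, where the libraries of 65.4% of all genes did not overlap. The counts were 21 and 6 in MCF10Ca1a against MCF10A, beside 81.5% of all genes, and 15 and 14 in MCF10Ca1a against MCF10AT1, beside 81.9%.

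The count of 11 synthesis genes lower in MCF10Ca1a than in MCF10AT1 depended on the scale. With limma on log2(TPM + 1), 5 of the 18 were lower. On that scale the median of all genes was itself 0.13, with 8203 genes higher and 5104 lower, where edgeR on counts gave 6808 and 7226. Relative to the median of all genes, the median of the 18 was -0.21 on the TPM scale.

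The 7 members of the mevalonate steps went furthest apart. ACAT2, which joins acetyl-CoA units at the entry of the pathway, stood at 152, 166 and 171 CPM in MCF10A, then 213, 213 and 205 in MCF10AT1, then 75.1, 79.6 and 78.9 in MCF10Ca1a. The lines did not overlap, with MCF10AT1 highest and MCF10Ca1a lowest. In MCF10Ca1a the gene fell by 1.07 ± 0.0566 on the log2 scale (SE) against MCF10A and by 1.43 ± 0.0569 against MCF10AT1 (edgeR, adjusted p = 4.61e-10 and 3.13e-11). HMGCS1, the synthase for HMG-CoA, had 281, 264 and 248 CPM in MCF10A, then 575, 566 and 508 in MCF10AT1, then 354, 370 and 356 in MCF10Ca1a. It was highest in MCF10AT1, 2.08-fold above MCF10A (log2 fold change 1.06 ± 0.065, edgeR adjusted p = 8.18e-09). MCF10Ca1a lay between the other lines, with a log2 fold change of -0.61 ± 0.0647 against MCF10AT1 (edgeR, adjusted p = 9.24e-07).

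Mevalonate kinase (MVK) and phosphomevalonate kinase (PMVK) act in sequence and moved differently. MVK was 1.31-fold higher in MCF10AT1 (log2 fold change 0.39 ± 0.062, edgeR adjusted p = 9.46e-05), and its difference of 0.030 ± 0.0639 between MCF10Ca1a and MCF10A did not pass (adjusted p = 0.671). PMVK had 55.3, 50.5 and 48.4 CPM in MCF10A, then 22.9, 24.2 and 20.7 in MCF10AT1, then 15.8, 16.1 and 17.3 in MCF10Ca1a. Every library of the derived lines was below every MCF10A library, and the gene fell by 1.18 ± 0.0679 in MCF10AT1 and by 1.65 ± 0.0726 in MCF10Ca1a on the log2 scale (edgeR, adjusted p = 3.98e-09 and 6.24e-11).

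MVD, the decarboxylase that makes isopentenyl diphosphate, showed the widest rise of the 18. Its CPM was 71.7, 63.3 and 60.2 in MCF10A, then 140.5, 139 and 134 in MCF10AT1, then 392, 381 and 387 in MCF10Ca1a. The 3 lines formed 3 separate levels: 2.12-fold above MCF10A in MCF10AT1 (log2 fold change 1.08 ± 0.0634, edgeR adjusted p = 5.05e-09) and 5.95-fold in MCF10Ca1a (2.57 ± 0.0659, adjusted p = 2.97e-13). In TPM the gene went from the 15th of the 29 members in MCF10A (53.9 TPM) to the 5th in MCF10Ca1a (339 TPM). IDI1, the isomerase that follows, rose 1.95-fold in MCF10AT1 and 1.52-fold in MCF10Ca1a (edgeR, adjusted p = 7.33e-08 and 3.28e-06). FDPS, which builds farnesyl diphosphate at the branch point to prenylation, was the most abundant member in MCF10A at 718 ± 65.2 TPM and fell in both derived lines, to 548 ± 33.2 and 493 ± 3.80 TPM, by 0.25 ± 0.0558 and 0.71 ± 0.0562 on the log2 scale of counts (edgeR, adjusted p = 0.00134 and 3.75e-08).

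At the squalene and lanosterol steps, FDFT1 (squalene synthase) carried the largest change. It had 393, 399 and 404 CPM in MCF10A, then 969.7, 967 and 884 in MCF10AT1, then 679, 685 and 711 in MCF10Ca1a. All 6 libraries of the derived lines were above MCF10A, by 2.36-fold in MCF10AT1 and 1.74-fold in MCF10Ca1a (log2 fold changes 1.24 ± 0.0571 and 0.80 ± 0.0567, edgeR adjusted p = 4.36e-10 and 1.12e-08). SQLE, the squalene epoxidase, differed from MCF10A in opposite directions in the derived lines. Its log2 fold change was -0.22 ± 0.0754 in MCF10AT1 and 0.22 ± 0.0755 in MCF10Ca1a against MCF10A (edgeR, adjusted p = 0.0195 and 0.0161). MCF10Ca1a was 1.36-fold above MCF10AT1 (0.44 ± 0.0756, adjusted p = 0.000103). Neither call against MCF10A held in all fits without 1 library. The former had an adjusted p of 0.0889 without MCF10AT1 replicate 3 and a value of -0.14 without MCF10A replicate 1. The latter, at 0.13 without MCF10A replicate 3, had adjusted p-values of 0.0596, 0.0832 and 0.05 without MCF10A replicate 2, MCF10A replicate 3 or MCF10Ca1a replicate 2. LSS, the lanosterol synthase, rose 1.36-fold and 1.57-fold (adjusted p = 0.000146 and 1.91e-06).

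After lanosterol, 6 of 8 genes rose in MCF10AT1 and none fell, where 29.8% of all genes rose and 31.8% fell. HSD17B7 and EBP, at 0.14 ± 0.067 and 0.071 ± 0.0585, did not pass (edgeR, adjusted p = 0.0779 and 0.314). Without MCF10A replicate 3 HSD17B7 passed at 0.20 (adjusted p = 0.0135), and without MCF10A replicate 1 it stood at 0.060 (adjusted p = 0.249). MSMO1, which removes the C4 methyl groups, had 229.8, 251 and 268 CPM in MCF10A, then 662, 688 and 665 in MCF10AT1, then 519, 539 and 529.7 in MCF10Ca1a. It was 2.69-fold higher in MCF10AT1 and 2.12-fold higher in MCF10Ca1a than in MCF10A (log2 fold changes 1.43 ± 0.0624 and 1.08 ± 0.062, adjusted p = 2.52e-10 and 1.01e-09). At 697 ± 22.9 TPM in MCF10AT1 and 656 ± 13.2 in MCF10Ca1a it was the most abundant member in both, after ranking 3rd in MCF10A at 288 ± 8.61 TPM.

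DHCR7 makes cholesterol from 7-dehydrocholesterol in the closing step. Its CPM was 157, 129 and 115 in MCF10A, then 212, 207 and 200.02 in MCF10AT1, then 424, 413 and 436 in MCF10Ca1a. The rise was 1.55-fold in MCF10AT1 (log2 fold change 0.63 ± 0.0895, edgeR adjusted p = 3.53e-05) and 3.18-fold in MCF10Ca1a (1.67 ± 0.0913, adjusted p = 6.36e-10), and the MCF10A libraries spread more than those of the derived lines. TM7SF2, a sterol C14 reductase, followed the same order from a low level, with 2.35, 2.09 and 2.32 CPM in MCF10A, then 3.60, 3.55 and 3.21 in MCF10AT1, then 7.43, 7.55 and 7.11 in MCF10Ca1a. Its log2 fold change was 0.61 ± 0.101 in MCF10AT1 and 1.71 ± 0.101 in MCF10Ca1a against MCF10A (edgeR, adjusted p = 0.000125 and 1.41e-09).

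The other late genes moved by less than 2-fold on counts. SC5D, which introduces the C5 double bond, rose 1.499-fold in MCF10AT1 and 1.92-fold in MCF10Ca1a (edgeR, adjusted p = 7.15e-07 and 1.57e-09). On log2(TPM + 1) its difference in MCF10Ca1a was 1.36 (limma, adjusted p = 2.64e-09), beside 0.94 ± 0.056 on counts. EBP, the sterol isomerase, was 1.75-fold lower in MCF10Ca1a than in MCF10A and 1.84-fold lower than in MCF10AT1 (adjusted p = 1.78e-08 and 8.71e-09). CYP51A1, the lanosterol demethylase, and NSDHL, a C4 decarboxylase, were 1.36-fold and 1.28-fold higher in MCF10AT1 (adjusted p = 3.46e-05 and 0.000152). In MCF10Ca1a against MCF10A, CYP51A1 stood at a log2 fold change of 0.0014 ± 0.0638 and NSDHL at -0.13 ± 0.0623, neither past the threshold (adjusted p = 0.986 and 0.0655). NSDHL passed there without MCF10A replicate 3, at -0.17 (adjusted p = 0.027), and without MCF10AT1 replicate 3, at -0.14 (adjusted p = 0.0215), and in 5 of 20 alternatives in all. HSD17B7, the reductase of the C4 demethylation, rose 1.21-fold in MCF10Ca1a (log2 fold change 0.28, adjusted p = 0.0021; 0.18 and 0.00216 without MCF10A replicate 1).

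**Figure D2:**
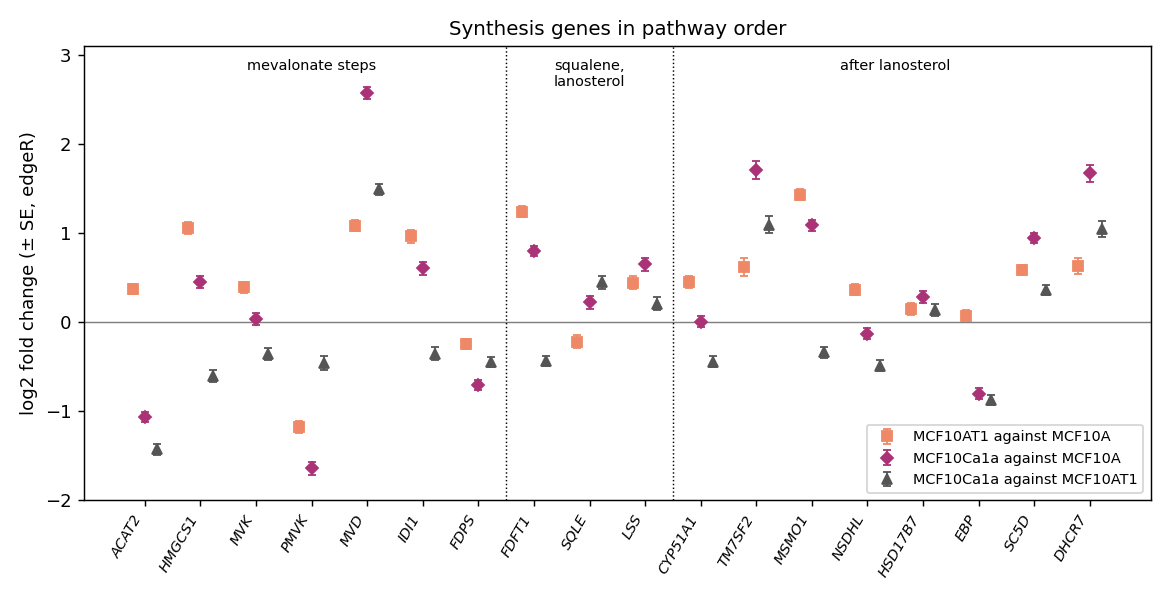
Log2 fold changes from edgeR with their SE as bars (vertical axis) are drawn for the 18 synthesis genes in pathway order, with 1 symbol per comparison. MVD at 2.57 and PMVK at -1.65 mark the ends for MCF10Ca1a against MCF10A, and the triangles for MCF10Ca1a against MCF10AT1 lie below 0 for 11 called genes.

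The promoters of these genes were read for known elements because 13 of the 18 rose together in MCF10AT1. RefSeq windows on GRCh38.p14, from 250 bases before to 50 bases after an annotated start, were found for 25 of the 29 members, in 31 windows; ACAT2, SQLE, FDFT1 and ABCG1 were not searched. 3 motifs were searched on both strands: TCACNCCAC, the core of the sterol regulatory element bound by SREBPs; CCAAT, bound by the factor NF-Y, which is known to act with SREBPs; and the LXR element, 2 copies of AGGTCA spaced by 4 bases. Only exact matches to these letters were counted, with N as any base, so a site that differs from them was missed. CCAAT matches on opposite strands can overlap. CCAAT was found in 75.0% of the 20 windows of synthesis genes and in 34.6% of the 35116 promoter windows of all genes. 3 or more CCAAT stood in 7 of the 20 synthesis windows and in 3.26% of all windows. The sterol element core matched 1 member window, that of SREBF2, and 1.13% of all windows. The LXR element matched none of the 31 member windows, which do not include ABCG1, and 0.0199% of all windows.

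The 250 bases before the start are shown for 5 members: SREBF2 for its sterol element, MVD, MSMO1 and NSDHL for their repeated CCAAT, and ABCA1, the member with the widest change, for its lack of a match. Each runs 5′ to 3′ on the gene's strand, in lower case, with matches in capitals (ATTGG is CCAAT on the other strand). SREBF2 lies at chr22:41832855-41833104 on the plus strand and has the sterol element core starting 133 bases before the start, 27 bases ahead of an inverted CCAAT. MVD lies at chr16:88663092-88663341 on the minus strand with 3 CCAAT. MSMO1 lies at chr4:165327419-165327668 on the plus strand with 4 CCAAT. NSDHL lies at chrX:152830813-152831062 on the plus strand with 5 CCAAT, of which an overlapping pair reads in both directions. ABCA1 lies at chr9:104928156-104928405 on the minus strand.
SREBF2: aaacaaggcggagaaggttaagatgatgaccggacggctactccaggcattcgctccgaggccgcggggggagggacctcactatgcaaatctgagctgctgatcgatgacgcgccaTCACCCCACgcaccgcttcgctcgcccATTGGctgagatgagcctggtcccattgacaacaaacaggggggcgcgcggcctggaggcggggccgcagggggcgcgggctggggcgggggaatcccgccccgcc
MVD: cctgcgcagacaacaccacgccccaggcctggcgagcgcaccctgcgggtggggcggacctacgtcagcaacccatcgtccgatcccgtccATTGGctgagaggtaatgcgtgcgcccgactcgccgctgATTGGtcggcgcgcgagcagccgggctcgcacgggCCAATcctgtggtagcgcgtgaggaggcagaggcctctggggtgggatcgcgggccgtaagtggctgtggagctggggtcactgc
MSMO1: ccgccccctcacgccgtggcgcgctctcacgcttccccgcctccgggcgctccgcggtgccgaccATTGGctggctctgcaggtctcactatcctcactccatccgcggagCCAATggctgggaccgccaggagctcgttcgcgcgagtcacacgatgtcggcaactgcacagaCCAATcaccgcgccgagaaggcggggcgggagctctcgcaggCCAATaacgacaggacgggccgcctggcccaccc
NSDHL: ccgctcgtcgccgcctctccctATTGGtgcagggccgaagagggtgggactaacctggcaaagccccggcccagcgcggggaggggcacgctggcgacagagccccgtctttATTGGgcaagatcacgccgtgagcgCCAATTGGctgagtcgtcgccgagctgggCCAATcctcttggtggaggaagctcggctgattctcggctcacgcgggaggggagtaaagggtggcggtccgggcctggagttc
ABCA1: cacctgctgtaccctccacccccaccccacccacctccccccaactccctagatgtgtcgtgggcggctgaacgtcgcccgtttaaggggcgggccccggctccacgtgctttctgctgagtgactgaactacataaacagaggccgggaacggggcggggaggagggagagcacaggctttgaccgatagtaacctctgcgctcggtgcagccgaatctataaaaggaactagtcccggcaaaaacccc

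A motif match is a description of the letters, and windows without a match say nothing of a factor's binding. MVD and MSMO1, with 3 and 4 CCAAT, were above 2-fold in MCF10AT1, whereas NSDHL with 5 rose 1.28-fold and HMGCS1 with 2 rose 2.08-fold. EBP held 3 CCAAT and did not pass in MCF10AT1, and FDPS held 3 and fell.

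**Figure D3:**
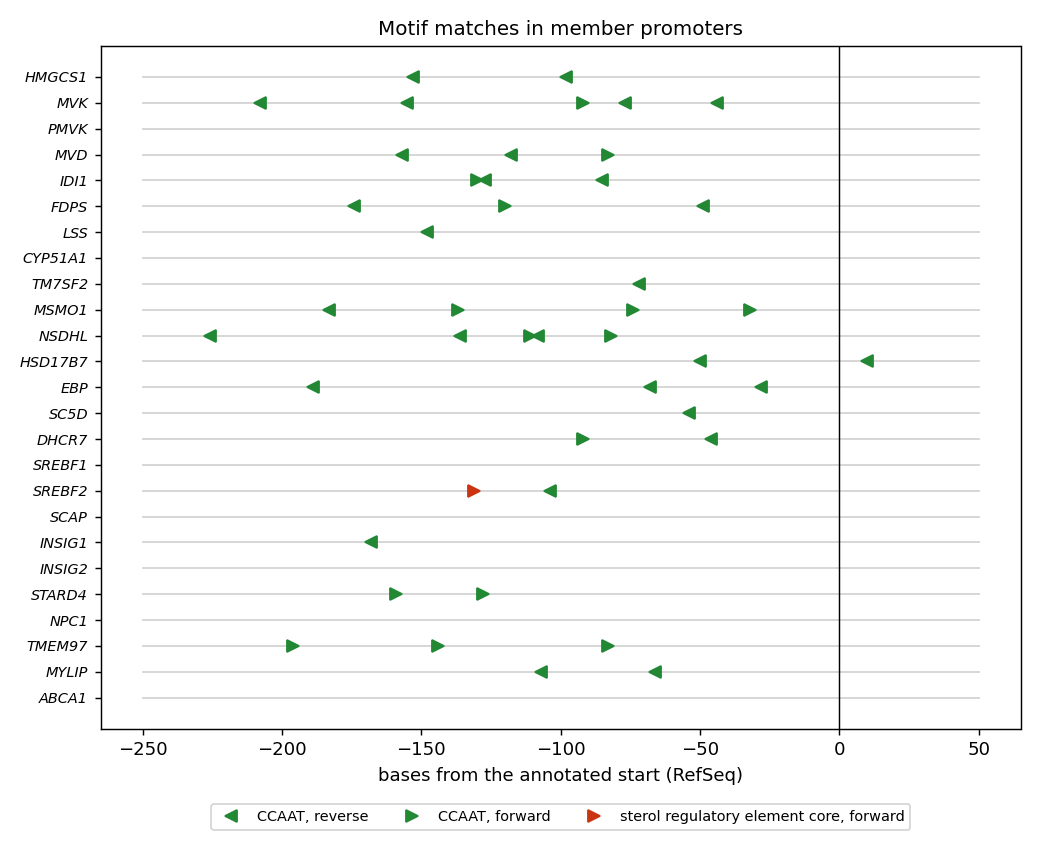
Arrowheads mark motif matches by their distance in bases from the annotated start (horizontal axis) in 1 promoter window per member, the window with the most CCAAT where a gene has several, pointing along or against the gene. All CCAAT matches except 1 of HSD17B7 lie before the start, and the only sterol element core is that of SREBF2.

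The sensing genes were all higher in MCF10Ca1a than in MCF10A. By edgeR, 5 of 5 rose, with a median log2 fold change of 1.59. In MCF10AT1 against MCF10A, 3 of 5 rose, 1 fell and 1 was not called, with a median of 0.45, and between MCF10Ca1a and MCF10AT1, 4 were higher in MCF10Ca1a and 1 lower, with a median of 0.59. The shares of all genes called in these comparisons are those given above for the synthesis genes.

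INSIG1 encodes the endoplasmic reticulum anchor of SCAP and lies on chromosome 7 from 155297776 to 155310235 on the plus strand (GENCODE 29, GRCh38). It had 80.7, 75.3 and 75.2 CPM in MCF10A, then 307, 315 and 302 in MCF10AT1, then 260.4, 262 and 259 in MCF10Ca1a. Both derived lines were far above MCF10A, by 3.99-fold in MCF10AT1 and 3.38-fold in MCF10Ca1a (log2 fold changes 2.00 ± 0.052 and 1.76 ± 0.0518, edgeR adjusted p = 1.34e-12 and 1.12e-12). The fall of 0.24 ± 0.05 from MCF10AT1 to MCF10Ca1a on the log2 scale of counts (adjusted p = 0.000534) was a difference of 0.063 the other way on log2(TPM + 1), not called there (limma, adjusted p = 0.414). INSIG2, its paralogue, was also higher in both derived lines. It had 15.7, 15.3 and 14.7 CPM in MCF10A, then 20.4, 22.03 and 19.8 in MCF10AT1, then 31.4, 32.7 and 29.7 in MCF10Ca1a. Its libraries formed 3 levels without overlap, 1.36-fold and 2.06-fold above MCF10A (edgeR, adjusted p = 1.83e-05 and 1.14e-09).

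SREBF1 and SREBF2 encode the SREBPs, SREBF1 with a known leaning to fatty acid synthesis and SREBF2 to cholesterol. SREBF1 had 99.1, 79.5 and 76.7 CPM in MCF10A, then 195, 195 and 201 in MCF10AT1, then 257, 250.4 and 260.4 in MCF10Ca1a. It was already raised in MCF10AT1, 2.32-fold (log2 fold change 1.21 ± 0.0801, edgeR adjusted p = 1.69e-08), and stood 3.01-fold above MCF10A in MCF10Ca1a (1.59 ± 0.0809, adjusted p = 2.92e-10). SREBF2 had 199, 167 and 153 CPM in MCF10A, then 183, 181 and 189.5 in MCF10AT1, then 543, 519 and 549 in MCF10Ca1a. The MCF10AT1 libraries lay inside the range of MCF10A (log2 fold change 0.093 ± 0.0789, adjusted p = 0.324; without MCF10A replicate 1, 0.21 with an adjusted p of 0.00204), and the rise was in MCF10Ca1a, 3.101-fold over MCF10A and 2.91-fold over MCF10AT1 (1.63 ± 0.0806 and 1.54 ± 0.0804, adjusted p = 2.1e-10 and 5.12e-10).

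SCAP, the escort of the SREBPs, had the smallest change of the 5 in MCF10Ca1a against MCF10A. Its CPM was 65.6, 57.1 and 51.4 in MCF10A, then 49.98, 48.1 and 51.1 in MCF10AT1, then 80.3, 73.4 and 80.9 in MCF10Ca1a. It was 1.35-fold above MCF10A in MCF10Ca1a (log2 fold change 0.43 ± 0.0768, edgeR adjusted p = 0.000139). The fall of 0.22 ± 0.0764 in MCF10AT1 (adjusted p = 0.022) was -0.12 with an adjusted p of 0.0688 without MCF10A replicate 1, and its adjusted p was 0.0548 without MCF10AT1 replicate 1 and 0.0829 without MCF10AT1 replicate 2.

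Among the uptake and transport genes NPC1 rose most in MCF10Ca1a, and STARD4 in MCF10AT1. NPC1 is a lysosomal membrane protein that moves cholesterol from endocytosed lipoproteins into the cell, and its gene spans 23506184 to 23586898 on the minus strand of chromosome 18. It had 62.4, 53.1 and 47.7 CPM in MCF10A, then 88.2, 87.2 and 86.4 in MCF10AT1, then 271, 267 and 278 in MCF10Ca1a. The lines did not overlap, at 1.60-fold above MCF10A in MCF10AT1 (log2 fold change 0.68 ± 0.077, edgeR adjusted p = 4.01e-06) and 5.00-fold in MCF10Ca1a (2.32 ± 0.0796, adjusted p = 4.78e-12). The gene RMC1 overlaps it by 25624 bases on the other strand. The library kit keeps strand, and whether the counting used it is not given in the sources used here, as for the antisense overlaps of other members.

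STARD4, a soluble carrier of sterols, was higher in both derived lines. It had 54.9, 61.2 and 68.8 CPM in MCF10A, then 114, 119 and 119 in MCF10AT1, then 98.9, 104 and 88.3 in MCF10Ca1a. The log2 fold change against MCF10A was 0.93 ± 0.0787 in MCF10AT1 and 0.66 ± 0.0794 in MCF10Ca1a (edgeR, adjusted p = 2.24e-07 and 3.35e-06). Between MCF10Ca1a and MCF10AT1 it was -0.27 ± 0.0785 on counts (adjusted p = 0.00591) and -0.0070 on log2(TPM + 1), where the lines overlap (limma, adjusted p = 0.932). TMEM97, the sigma-2 receptor, which binds NPC1, went the other way, with 67.2, 64.9 and 60.1 CPM in MCF10A, then 56.6, 58.0 and 54.1 in MCF10AT1, then 40.6, 43.2 and 43.3 in MCF10Ca1a. It fell by 0.19 ± 0.0542 in MCF10AT1 and by 0.60 ± 0.056 in MCF10Ca1a on the log2 scale (adjusted p = 0.00829 and 2.32e-07). MYLIP, which marks lipoprotein receptors for degradation, was low throughout, at 1.72, 1.90 and 1.65 CPM in MCF10A, then 2.17, 2.28 and 1.90 in MCF10AT1, then 2.74, 2.59 and 2.54 in MCF10Ca1a. MCF10Ca1a was 1.49-fold above MCF10A (0.58 ± 0.129, edgeR adjusted p = 0.000922), and the difference of 0.27 ± 0.124 in MCF10AT1 did not pass (adjusted p = 0.0724; without MCF10AT1 replicate 3, 0.35 with an adjusted p of 0.0364).

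The exporters had the largest changes of the 29 members in both comparisons of MCF10Ca1a. ABCA1, which loads cholesterol onto lipid-poor apolipoprotein, had 3, 6 and 11 estimated counts in the MCF10A libraries, then 20, 11 and 13 in MCF10AT1, then 619, 556 and 649 in MCF10Ca1a, although the MCF10Ca1a libraries were the shallowest. In CPM this was 0.0468, 0.0927 and 0.158, then 0.300, 0.166 and 0.209, then 17.3, 16.5 and 18.3. The log2 fold change of MCF10Ca1a was 7.40 ± 0.204 against MCF10A and 6.25 ± 0.181 against MCF10AT1 (edgeR, adjusted p = 5.69e-13 and 1.6e-12), ranking 157th and 123rd of the 17910 genes from the top. On log2(TPM + 1), where the pseudocount exceeds its level in the lower lines, the differences were 1.80 and 1.78 (limma, adjusted p = 4.07e-10 and 7.73e-10). The size of the fold change rests on few counts in the lower lines, and the level reached was 2.54 ± 0.114 TPM, the 28th of the 29 members in MCF10Ca1a. The difference of 1.15 ± 0.36 between MCF10AT1 and MCF10A (adjusted p = 0.0135) was 0.020 on log2(TPM + 1) (limma, adjusted p = 0.75). On counts it did not pass without MCF10A replicate 1 or without MCF10AT1 replicate 1 (0.83 and 0.88, adjusted p = 0.057 and 0.0745).

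ABCG1, which passes cholesterol to formed lipoprotein particles, had 3.48, 2.70 and 2.79 CPM in MCF10A, then 2.49, 2.58 and 2.29 in MCF10AT1, then 25.8, 26.3 and 24.7 in MCF10Ca1a. It was 8.56-fold higher in MCF10Ca1a than in MCF10A and 10.4-fold higher than in MCF10AT1 (log2 fold changes 3.098 ± 0.0935 and 3.38 ± 0.0958, edgeR adjusted p = 1.39e-12 and 1.31e-12), and reached 12.3 ± 0.558 TPM. The fall of 0.28 ± 0.105 in MCF10AT1 (adjusted p = 0.0307) had adjusted p-values of 0.149, 0.0635 and 0.11 without MCF10A replicate 1, MCF10AT1 replicate 1 or MCF10AT1 replicate 3, and the value without MCF10A replicate 1 was -0.16. Over the 6 uptake, transport and efflux genes, 5 rose and 1 fell in MCF10Ca1a against MCF10A, and 3 rose, 2 fell and 1 was not called in MCF10AT1. Of all genes, 39.0% rose and 41.9% fell in the former comparison and 29.8% and 31.8% in the latter. The latter count of 5 called genes came to 3 without MCF10A replicate 1 and to 3 without MCF10AT1 replicate 1.

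**Figure D4:**
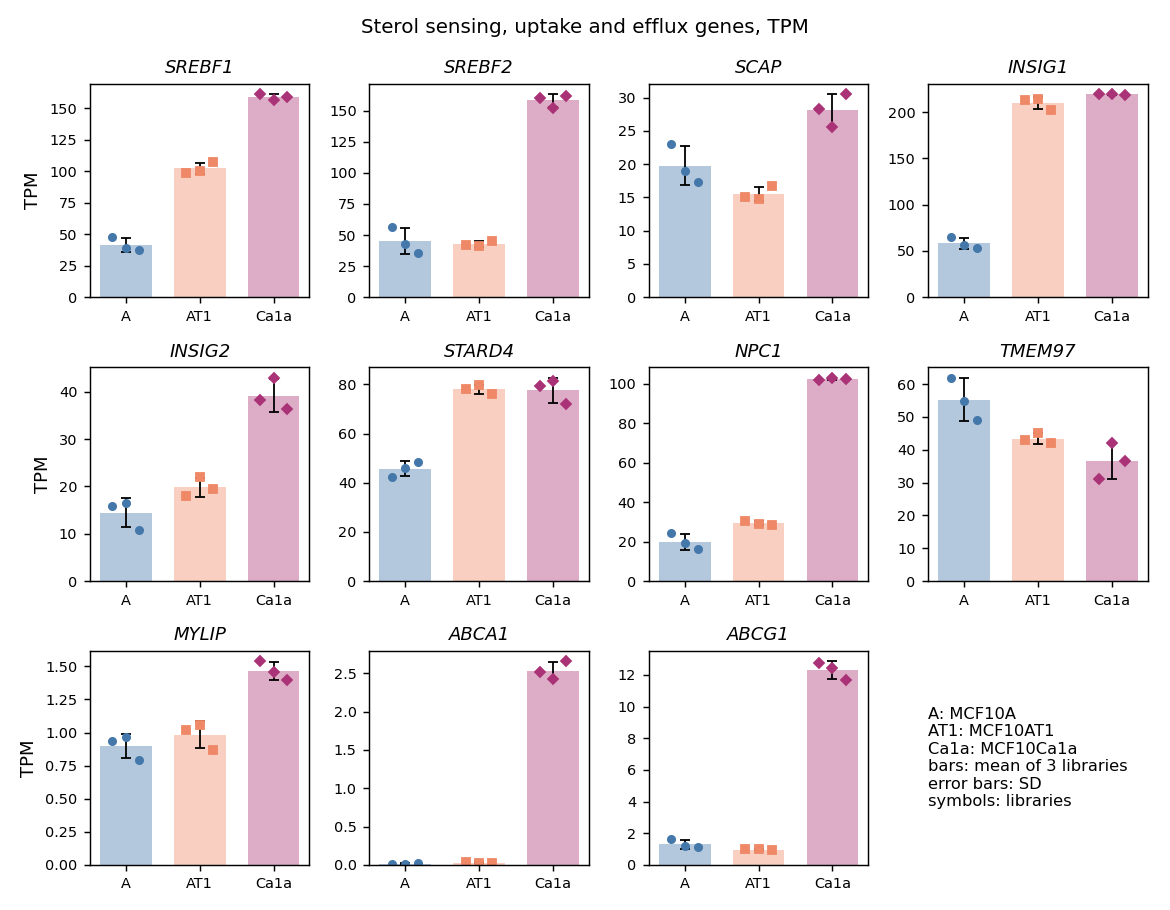
Bars give the mean TPM of 3 libraries, error bars the SD and symbols the libraries, with a separate vertical axis for each of 11 genes. INSIG1 and STARD4 stand near their MCF10Ca1a level in MCF10AT1 already, whereas SREBF2, ABCA1 and ABCG1 are far higher in MCF10Ca1a than in both other lines.

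Neighbouring genes were compared because a change shared along a chromosome would include a member by position. Within 500 kb of SREBF1 on chromosome 17, the 18 other tested genes had a median log2 fold change of 1.01 in MCF10AT1 and 1.43 in MCF10Ca1a against MCF10A, beside 1.21 and 1.59 for SREBF1 itself. 7 and 9 of these neighbours were at or above it. Around DHCR7 the 6 neighbours had medians of 0.92 and 1.46, beside 0.63 and 1.67 for the gene. Around MVD the 14 neighbours had a median of 1.27 in MCF10Ca1a, with 3 at or above its 2.57, and of -0.01 in MCF10AT1, and the 4 around INSIG2 had 0.99 in MCF10Ca1a beside its 1.04. PMVK and FDPS, which were lower, lie on chromosome 1 in overlapping windows of 34 and 39 neighbours. The medians there were -0.65 and -0.72 in MCF10AT1 against MCF10A, beside -1.18 and -0.25 for the genes. In MCF10Ca1a against MCF10A the medians were 0.02 and 0.04, beside -1.65 and -0.71 for the genes. DNA copy number was not analysed here, and its part in these values was not tested.

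Some other members lay above most or all of their tested neighbours. ABCA1 at 7.40 had 3 neighbours with a median of -0.57 and a highest value of 0.82 in MCF10Ca1a against MCF10A. ABCG1 at 3.1 had 8 neighbours with a median of 0.61, of which 1 reached it, at 5.52. NPC1 at 2.32 was above each of its 7 neighbours, whose median was 0.66, beside -0.26 over chromosome 18. SREBF2 at 1.63 had 25 neighbours with a median of -0.28, of which 2 reached it. INSIG1 at 2.00 in MCF10AT1 was above all 6 of its neighbours, whose median was 0.55. In MCF10Ca1a against MCF10A, at 1.76, it had 1 of the 6 at or above it, at 2.55. FDFT1 at 1.24 in MCF10AT1 was above all 7, whose median was -0.71.

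The make-up of transcripts was tested for 26 members, as the share of each transcript in its gene's estimated counts (limma on log2 ratios, Simes p per gene, Benjamini-Hochberg over 11153 genes). It differed for 4 members between MCF10AT1 and MCF10A, for 13 between MCF10Ca1a and MCF10A and for 11 between MCF10Ca1a and MCF10AT1. Among all genes tested 10.2%, 48.6% and 41.6% were called, so these counts of 26 are read against a wide background. The count of 4 came to 2 without MCF10AT1 replicate 1 or without MCF10AT1 replicate 2, and the count of 11 came to 7 without MCF10AT1 replicate 2. Shares among similar transcripts are estimates, and their assignment uncertainty was not used here.

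A wide shift was in SC5D. The transcript ENST00000264027.9 took 35.7%, 31.8% and 29.3% of the gene's counts in MCF10A, then 30.7%, 29.4% and 29.8% in MCF10AT1, then 7.2%, 7.1% and 7.5% in MCF10Ca1a. MCF10A and MCF10AT1 overlapped and MCF10Ca1a stood apart (limma, adjusted p for the gene = 6.78e-06 against MCF10A and 1.31e-05 against MCF10AT1), while the share of ENST00000392789.2 was 46.2%, 48.1% and 64.3% on average. In GENCODE 29 both have 897 coding bases and differ in their starts, at 121292453 and 121292852 on chromosome 11, and in their ends. The deposited tables hold 3.22 times as many counts per TPM for the former as for the latter, whereas their lengths in GENCODE 29 are 2456 and 2258 bases. Which transcript models the deposited values rest on is not given in the sources used here. The size of the gene's difference depended on the unit. MCF10Ca1a against MCF10AT1 gave 0.36 ± 0.0554 on the log2 scale of counts and 0.90 on log2(TPM + 1).

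INSIG1 had less of a minor form in MCF10Ca1a. ENST00000344756.8, with 534 coding bases in place of the 831 of the main form in GENCODE 29, took 15.6%, 14.2% and 14.1% of the counts in MCF10A, then 10.9%, 12.8% and 12.3% in MCF10AT1, then 2.6%, 0% and 0.8% in MCF10Ca1a. Every MCF10Ca1a library lay below the others. The adjusted p for the gene (limma) was 0.00775 against MCF10A and 0.0373 against MCF10AT1, the latter called in 7 of 12 alternatives. These values rest more on the main form ENST00000340368.9, with 83.2%, 85.7% and 91.0% on average in the 3 lines, than on the minor form, whose own limma p-values before adjustment were 0.0164 and 0.0209. For FDPS, ENST00000467076.5 took 11%, 9% and 11% in MCF10A, then 15.5%, 14.7% and 14% in MCF10AT1, then 1.8%, 4.2% and 3.1% in MCF10Ca1a. Its own limma p-values before adjustment were 0.000226 and 3.98e-05 for MCF10Ca1a against MCF10A and MCF10AT1. The adjusted p for the gene rests on ENST00000612683.1, which averaged 2.18% and 2.67% in MCF10A and MCF10AT1 and had no counts in MCF10Ca1a. That transcript passed the filter on mean count through the lines where it has counts, and the pseudocount sets its ratio in MCF10Ca1a. The adjusted p is therefore not given, and the calls of FDPS in MCF10Ca1a carry this limit. ENST00000467076.5 has 1059 coding bases, as does the main form ENST00000447866.5, from another start.

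SREBF1 was the sensing gene whose shares were called in MCF10AT1 against MCF10A; FDPS, IDI1 and MSMO1 were the others. Its transcript ENST00000261646.11 averaged 42.1% of the counts in MCF10A, 29.2% in MCF10AT1 and 24.3% in MCF10Ca1a, and the adjusted p for the gene (limma) was 0.01 for MCF10AT1 and 0.000325 for MCF10Ca1a against MCF10A. ENST00000355815.8 averaged 34.8%, 37.6% and 44.4%, with limma p-values before adjustment of 0.208 in MCF10AT1 and 0.00206 in MCF10Ca1a against MCF10A. The other members called in MCF10Ca1a against MCF10A were DHCR7, EBP, FDFT1, HMGCS1, HSD17B7, IDI1, MSMO1, NPC1 and STARD4. Of these FDFT1 and HSD17B7 (adjusted p = 0.0371 and 0.0358) were each called in 4 of 12 alternatives and EBP in 10 of 12. In MCF10AT1 against MCF10A, IDI1 was called in 7 of 12 and MSMO1 in 6 of 12.

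**Figure D5:**
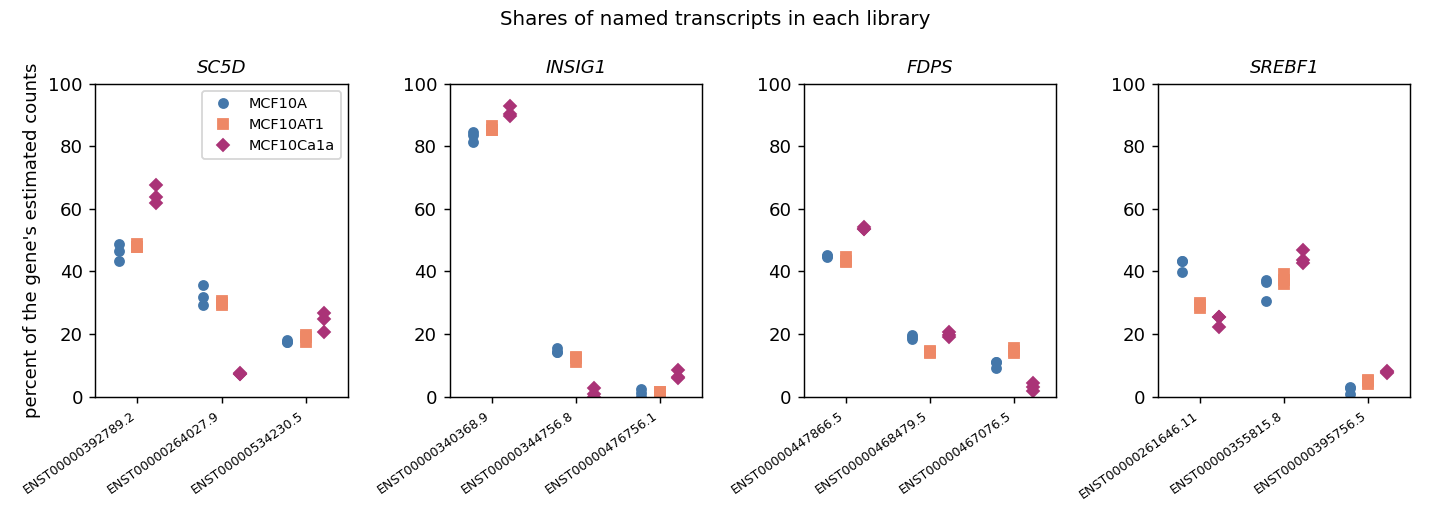
The vertical axis is the percent of a gene's estimated counts assigned to a transcript, with 1 symbol per library, for 3 transcripts each of SC5D, INSIG1, FDPS and SREBF1. ENST00000264027.9 of SC5D drops to 7.1% to 7.5% in MCF10Ca1a, and ENST00000261646.11 of SREBF1 is lower in both derived lines than in MCF10A.

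Of 41 other genes of sterol handling, 36 were tested. Between MCF10AT1 and MCF10A, 10 rose and 14 fell, and between MCF10Ca1a and MCF10A, 14 rose and 15 fell by edgeR. The 29 members had 19 higher and 6 lower, then 21 higher and 5 lower, and all genes 29.8% higher and 31.8% lower, then 39.0% and 41.9%. The difference between the lists was not tested. Their median log2 fold changes were -0.040 and -0.016. Between MCF10Ca1a and MCF10AT1, 16 were higher and 13 lower, and the 29 members had 14 each way, where 38.0% of all genes were higher and 40.3% lower.

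SOAT1 was lower in both derived lines. This enzyme stores cholesterol as ester, and its gene had 5583, 5430 and 5508 estimated counts in MCF10A, then 1677, 1713 and 1387 in MCF10AT1, then 764, 750 and 821 in MCF10Ca1a. It fell by 1.77 ± 0.0628 and 1.90 ± 0.0655 on the log2 scale, after scaling for depth (edgeR, adjusted p = 3.31e-11 and 5.01e-12). LBR, a nuclear membrane protein that is also a sterol C14 reductase like TM7SF2, fell by 1.14 ± 0.0559 and 1.76 ± 0.0578 (adjusted p = 8.26e-10 and 3.16e-12), opposite to TM7SF2. Of the list of 7 genes of esterification and related sterol enzymes 4 were tested, and 3 were lower in each derived line than in MCF10A, beside 31.8% of all genes in MCF10AT1 and 41.9% in MCF10Ca1a. The 3 did not share a direction of action, since the remaining gene, NCEH1, releases cholesterol from its ester and fell by 0.86 ± 0.0602 and 0.82 ± 0.0616. CH25H, CYP7B1 and CYP27A1 were too low.

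4 carriers of sterol between membranes were higher in MCF10Ca1a. OSBPL2, STARD3, GRAMD1A and OSBP rose by log2 fold changes of 1.91 ± 0.0585, 1.62 ± 0.0744, 1.46 ± 0.053 and 1.36 ± 0.0754 against MCF10A (edgeR, adjusted p = 1.58e-12, 9.4e-11, 8.73e-12 and 7.25e-10). In this list of 9, 6 rose and 2 fell, beside 39.0% and 41.9% of all genes. NPC2, the soluble partner of NPC1 in the lysosome, rose like it in MCF10AT1 and was lower in MCF10Ca1a. Its log2 fold change was 0.91 ± 0.069 in MCF10AT1 against MCF10A and -1.25 ± 0.07 in MCF10Ca1a against MCF10AT1 (adjusted p = 6.91e-08 and 1.06e-09). VLDLR, a lipoprotein receptor, was likewise highest in MCF10AT1, at 1.16 ± 0.126 against MCF10A and -1.36 ± 0.137 for MCF10Ca1a against MCF10AT1 (adjusted p = 2.54e-06 and 5.4e-07).

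In the side branches of mevalonate, 2 of 9 genes rose and 6 fell in MCF10Ca1a against MCF10A, where 39.0% and 41.9% of all genes did. DHDDS, for dolichol, rose by 1.49 ± 0.0491, while PDSS1, for the ubiquinone tail, and FNTB, a farnesyltransferase subunit, fell by 1.52 ± 0.0743 and 1.22 ± 0.0796 on the log2 scale (edgeR, adjusted p = 3.33e-12, 1.85e-10 and 4.23e-09). Among 9 genes of SREBP processing and sterol-regulated turnover, 2 rose and 4 fell, beside 39.0% and 41.9% of all genes. ERLIN1 alone of these passed 2-fold, falling by 1.01 ± 0.0526 (adjusted p = 3.61e-10). All 4 genes of the LXR receptors and their partners were called higher in MCF10Ca1a than in MCF10A, by less than 2-fold, with a median of 0.58. They did not move alike. The libraries of NR1H3 overlapped between these lines, and it was highest in MCF10AT1. Its mean CPM was 4.94 in MCF10A, 8.32 in MCF10AT1 and 5.92 in MCF10Ca1a. The other efflux genes ABCG5 and ABCG8 had 0 counts in all libraries, and APOE had 11 to 35.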

How the data were processed

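RNA-seq of 9 libraries, 3 per line, was analysed from the deposited tables. The authors deposited estimated counts per gene and per transcript, 2 further gene count tables named as scaled and length-scaled, and TPM. Salmon and the genome build hg38 are named per the submitters' processing notes; the annotation release is not given in the sources used here. Counts were rounded, genes were filtered with filterByExpr (minimum count 10, minimum total 15), and all 9 libraries were fitted together in edgeR 4.0.16 (R 4.3.3, TMM, quasi-likelihood test, Benjamini-Hochberg at 0.05). SDs are over the 3 libraries of a line, and SEs were derived from edgeR's fold change and F statistic. limma 3.58.1 was used on log2(TPM + 1) and for transcript shares (mean count of at least 10, pseudocount 0.5), and DESeq2 1.42.0 as an alternative. Depth was 32930503 to 69508842 counts per library.

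In a simulation of MCF10Ca1a against MCF10A with 17419 genes, edgeR recovered 96 of 100 genes changed 2-fold and 80 of 100 changed 1.5-fold, with 14 false calls. In the same comparison the share test, run on 10952 genes, recovered 31 of 100 at 3-fold and 71 of 100 at 8-fold, with 13 false calls. Simulated counts were drawn at the spread that edgeR estimated from these data, and all but the changed genes were equal between lines. In the data 80.9% of genes were called, so these figures do not measure recovery or false calls there.

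Positions, neighbours and transcript structures come from GENCODE 29 on GRCh38, promoters from RefSeq. The members and lists were chosen with earlier results of these data known. All members are named; those past 2-fold in any comparison and all sensing, uptake and efflux members are given by library, and other sterol genes are named where they pass 2-fold and average 100 counts or more in whichever line is higher. Genes outside this rule were chosen after their values were seen.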

Additional observations from a re-analysis of the deposited data

How the results depend on the processing

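Alternatives covered normalisation, test, filter, count table, scale, depth, samples fitted and each library left out. Of the log2 fold changes of the 29 members under them, 1637 kept their side of the threshold, 82 lost the call and 18 gained it. In 3 the sign of a called value reversed. These were INSIG1 in MCF10Ca1a against MCF10AT1, 0.063 on log2(TPM + 1), with and without the filter, and 0.064 on log2(TPM + 0.1). A change of sign where neither fit called the gene counts among the 1637. EBP in MCF10AT1 against MCF10A, at -0.066 to 0.12, is such a case. The TPM scale shifts the median of all genes and the split of calls. In MCF10Ca1a over MCF10AT1 that median was -0.044 on counts, 0.13 on log2(TPM + 1) and 0.21 on log2(TPM + 0.1). Higher and lower genes numbered 3447 and 6086 in MCF10AT1 over MCF10A (5335 and 5690 on counts) and 7550 and 6172 in MCF10Ca1a over MCF10A (6979 and 7512). Thinned to the smallest library, MYLIP gained its call in MCF10AT1 over MCF10A and lost that between MCF10Ca1a and MCF10AT1.

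With limma on TPM, unfiltered and with pseudocounts of 1 and 0.1, the synthesis genes lower in MCF10Ca1a than in MCF10AT1 numbered 4, 5 and 5, and 11 synthesis genes were called unfiltered. Sensing genes lower there came to 0 and uptake, transport and efflux genes lower to 0 in each. Of all genes tested, these fits called 43.3%, 74.3% and 75.1% in MCF10Ca1a against MCF10AT1, where edgeR on counts called 78.4%. In MCF10AT1 against MCF10A, 6 other sterol genes were higher in each of the fits. Of all genes tested, 27.4%, 53.2% and 54.1% were called in this comparison, where edgeR on counts called 61.6%. There, uptake, transport and efflux genes called numbered 2, 3 and 3, with 0, 1 and 1 lower, and unfiltered the sensing genes called numbered 2, with 0 lower. In the same comparison scaled counts gave 2 uptake, transport and efflux genes called and 0 lower, with 50.5% of all genes called. Length-scaled counts gave 1 of them lower, with 56.5% of all genes called. A fit of only those 2 lines gave 1 lower, with 61.9% of all genes called. Both count tables gave 0 sensing genes lower.

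Without 1 library, in MCF10AT1 against MCF10A, sensing genes lower ranged from 0 to 1 (0 without MCF10A replicate 1, MCF10AT1 replicate 1 or 2). Uptake, transport and efflux genes called ranged from 3 to 5. Those lower ranged from 1 to 2 (1 without MCF10A replicate 1, MCF10AT1 replicate 1 or 3). Of all genes tested, 54.6% to 60.6% were called in these fits. Members with changed transcript shares ranged from 2 to 4 (2 without MCF10AT1 replicate 1 or 2), and in MCF10Ca1a against MCF10AT1 from 7 to 12 (7 without MCF10AT1 replicate 2). LSS in MCF10Ca1a against MCF10AT1 lost its call without any 1 of 5 libraries of these lines, and MYLIP there in 13 of 20 alternatives. The cause of these changes was not tested.

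Libraries of the lines share replicate numbers, but same-numbered libraries correlated from -0.174 to 0.202 in their deviations, so the numbers were not taken as pairs. With a replicate block 10846, 14397 and 13917 genes were called against 11025, 14491 and 14034 without it, and the members with changed transcript shares between MCF10AT1 and MCF10A came to 2.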

Other observations

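PLIN1, which coats lipid droplets in fat cells, was measured as a marker of adipocytes and was high in MCF10Ca1a, at 7.02, 6.18 and 6.39 TPM, with 0.0321, 0.0449 and 0.0131 TPM in MCF10A and 0.0861, 0.0661 and 0.125 in MCF10AT1. These levels rest on 314, 296 and 300 estimated counts in MCF10Ca1a, on 4, 6 and 2 in MCF10A and on 13, 10 and 18 in MCF10AT1. CIDEC, a droplet fusion protein on the same list, had 14, 15 and 16 counts in MCF10Ca1a, 4, 2 and 1 in MCF10A and 8, 3 and 4 in MCF10AT1. Both genes passed the filter on low counts through MCF10Ca1a, the line where they are highest, so no fold change or test is given for them. ADIPOQ, the adipocyte hormone, stayed at 3 counts or fewer in each library. PECAM1, an endothelial adhesion molecule, was at 18.7 ± 2.74 TPM in MCF10Ca1a and 0.626 ± 0.0997 in MCF10A, while VWF and CDH5 stayed at 3 counts or fewer. DCN, a fibroblast proteoglycan, was highest in MCF10AT1 at 27.9 ± 2.17 TPM, with COL1A2 and COL3A1 at 3 counts or fewer.

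HSD17B7P2, a pseudogene copy of HSD17B7, has 2 entries in the files. The more abundant took 0.6% of its counts and those of HSD17B7 in MCF10A, 4.62% in MCF10AT1 and 3.31% in MCF10Ca1a. Reads of such copies can be divided between them in the estimated counts. The genes for the microRNAs MIR33A and MIR33B lie within SREBF2 and SREBF1 on the same strand in GENCODE 29, and polyadenylated RNA does not measure mature microRNAs.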
